A study of Saccharomyces cerevisiae with 12 samples.

Results

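The response of 9 yeast genes to protein misfolding in the endoplasmic reticulum (ER) was examined in 4 strains. The genes *SEC59*, *DPM1*, *ALG5*, *ALG7*, *ALG1*, *ALG2*, *ALG3*, *ALG6*, and *ALG8* encode enzymes that build the dolichol-linked glycan. They were chosen by name, as the array elements that the platform's probe annotation assigns to these symbols, and each of them matched 1 of the 6024 elements.

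N-linked glycans are assembled on dolichol phosphate, a long isoprenoid lipid of the ER membrane, before they are transferred as a block to asparagines of proteins that enter the ER. Assembly begins on the cytosolic face of the membrane with sugars from nucleotide donors, the lipid-linked intermediate is turned to the lumenal face, and the remaining sugars come there from mannose and glucose carried on dolichol phosphate itself. Because the finished glycan helps proteins fold, genes of this pathway are among the classical targets of the unfolded protein response (UPR), in which the kinase and nuclease Ire1p allows the transcription factor Hac1p to be made. Gcn4p is a transcription factor best known for the control of amino acid synthesis, and Gcn2p is the kinase that promotes translation of its mRNA.

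All strains were *Saccharomyces cerevisiae* MATa haploids that carried *ade2-1*, *can1-100*, *his3-11,-15*, *leu2-3,-112*, *trp1-1*, and *ura3-1*. WT had no further change, *IRE1* was replaced with *TRP1* in Δ*ire1*, and *GCN4* or *GCN2* was replaced with *his5+* in Δ*gcn4* or Δ*gcn2*. Cells in rich medium received 2 mM DTT, a reducing agent that impairs the folding of ER proteins, for 30 min, and each of 3 two-color arrays per strain set their mRNA against mRNA from untreated cells of that strain. Values are given as log2 ratios, treated over untreated, so that 1 stands for a doubling and a difference between strains is a difference between their responses, not between their levels.

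Some UPR promoters carry short unfolded protein response elements (UPREs), and 2 of the study's gel-shift probes are printed because the place of *DPM1* and *SEC59* in the table, on a reading that no column states, may put them among genes with these elements. The UPRE-1 probe comes from the promoter of *KAR2*, the ER Hsp70 chaperone, and the UPRE-2 probe from that of *ERO1*, the oxidase that drives disulfide formation. Both probes are 55 bases long, are printed 5′ to 3′ as the study's oligonucleotide table gives them, and have the core motif in capitals.
UPRE-1: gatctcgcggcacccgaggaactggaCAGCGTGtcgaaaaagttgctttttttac
UPRE-2: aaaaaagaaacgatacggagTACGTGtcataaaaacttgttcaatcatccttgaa
The cores share the letters CGTG, where UPRE-1 has CAGCGTG and UPRE-2 has TACGTG. The promoters of the 9 genes were not examined here.

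The table had no missing value, and the median of an array lay between −0.21 and −0.06. Values were used as deposited, and the effect of centering each array on its median, a shift of 0.11 to 0.16 per strain, is given where it changed a call. Arrays of 1 strain correlated over all elements at 0.64 to 0.94, and the lowest values were those of Δ*ire1* replicate 3 (0.64 and 0.66) and Δ*gcn4* replicate 1 (0.73 and 0.78), so the values of both strains are also given without them. DTT raised *KAR2* and *ERO1* in all strains, by 1.96 and 1.96 in WT and by 0.85 and 0.37 in Δ*ire1*. A ratio within a strain gives no level and does not check a deletion. The elements of *GCN4* in Δ*gcn4* and of *GCN2* in Δ*gcn2* gave called ratios (−0.83 and 0.51) although the labels say that these genes were deleted, and the source of that signal was not tested. *GCN4* also fell by a called amount in WT (−0.59), Δ*ire1* (−0.52), and Δ*gcn2* (−0.66), whereas *GCN2* was called in Δ*gcn2* only. Neither differed between its deletion strain and WT by a called amount (−0.25 for *GCN4* and 0.22 for *GCN2*). *IRE1* was not matched to an element. Differences were called at an adjusted p under 0.05 in a limma fit to all 12 arrays, with p adjusted over 6024 elements.

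In WT, 5 of the 9 genes rose after DTT (*SEC59*, *ALG6*, *ALG3*, *ALG7*, and *ALG8*) and 1 fell (*ALG5*), where 18.4% of all elements rose and 39.0% fell. In Δ*ire1*, 1 gene rose (*ALG1*) and 4 fell (*ALG3*, *DPM1*, *ALG7*, and *ALG5*), against 12.2% and 35.6% of all elements. In both Δ*gcn4* and Δ*gcn2* the same 5 genes rose, *ALG3*, *ALG7*, *ALG6*, *ALG1*, and *SEC59*. Those that fell were *DPM1* and *ALG5* in Δ*gcn4* and *ALG5* in Δ*gcn2*. The background of rises and falls was 15.8% and 38.7% of elements for Δ*gcn4* and 25.2% and 37.8% for Δ*gcn2*. The median of the 9 genes was 0.28 for WT, −0.23 for Δ*ire1*, 0.31 for Δ*gcn4*, and 0.40 for Δ*gcn2*, beside medians over all elements of −0.15, −0.14, −0.16, and −0.11. With centered arrays, rises made up 49.3%, 48.6%, 49.2%, and 50.7% of the calls over all elements in the same order of strains, in place of 32.0%, 25.5%, 29.0%, and 40.0%. The counts for the 9 genes then became 6 higher and 1 lower in WT, with *ALG1* added, and 1 higher and 2 lower in Δ*ire1*, and stayed as they were in the other 2 strains.

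**Figure D1:**
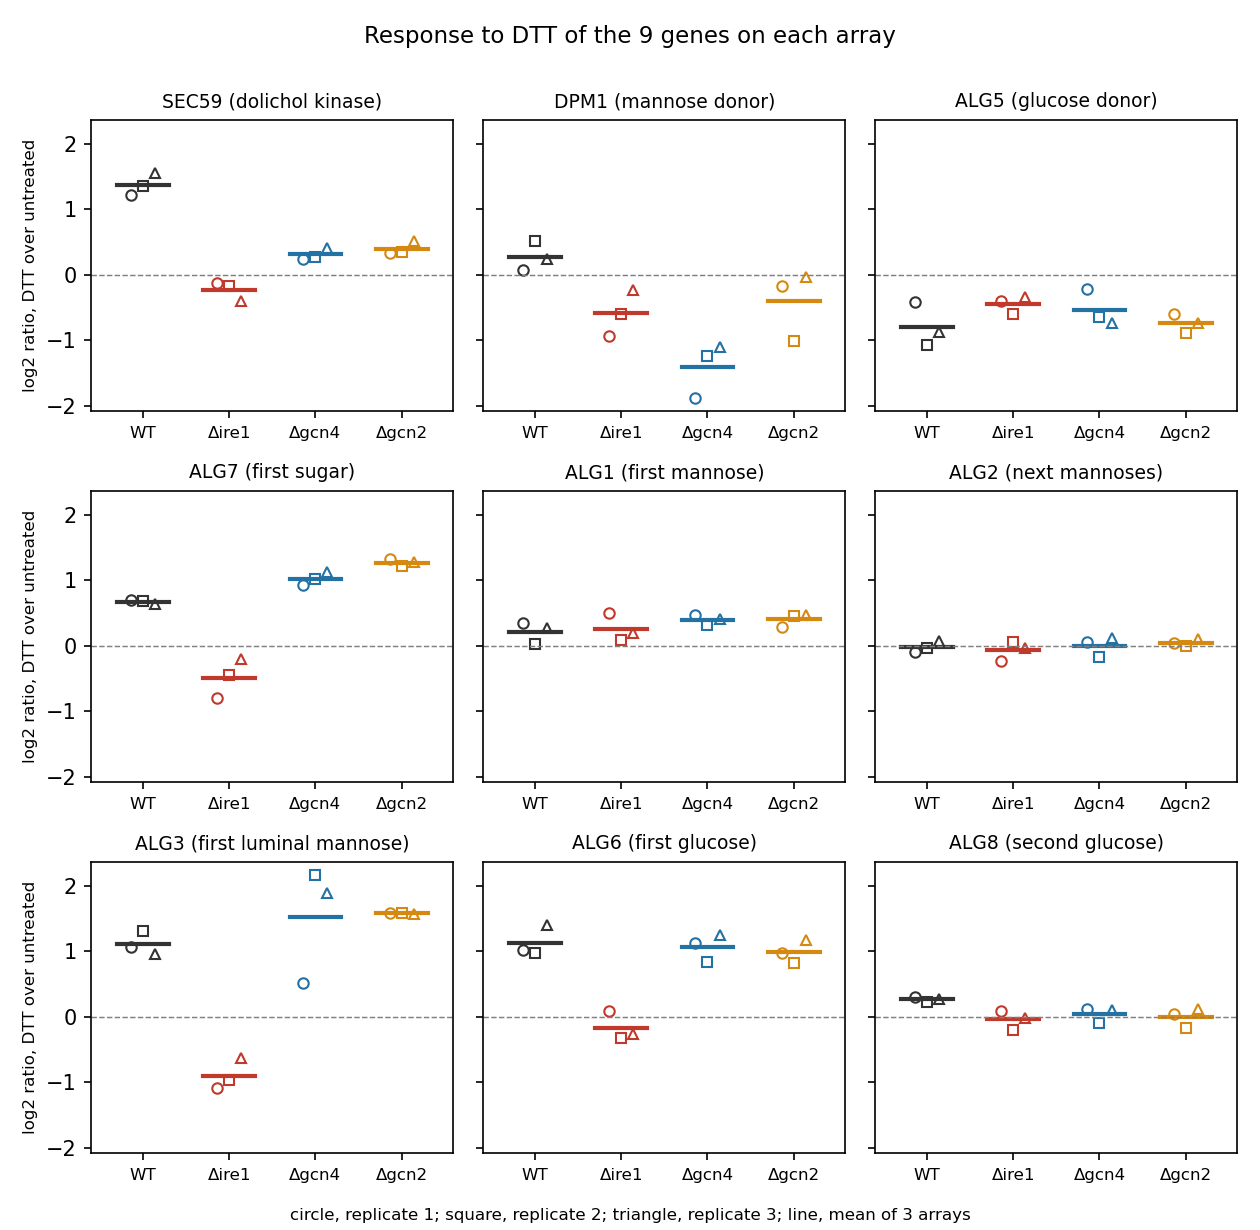
Log2 ratio after DTT, treated over untreated (vertical axis), for each of the 9 genes in WT, Δire1, Δgcn4, and Δgcn2, with 1 symbol per array and a line at the mean of 3 arrays. ALG7, ALG3, and ALG6 lie above 0 in WT, Δgcn4, and Δgcn2 on every array, SEC59 is highest in WT, and the ALG3 point of Δgcn4 replicate 1 lies at 0.51, far below the other 2 arrays of that strain.

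Among the enzymes of the lipid carrier and its donor sugars, *SEC59* encodes dolichol kinase, which makes the dolichol phosphate on which the glycan is built. Its log2 ratios were 1.21, 1.35, and 1.56 on the WT arrays, −0.13, −0.17, and −0.40 on those of Δ*ire1*, 0.24, 0.27, and 0.41 on those of Δ*gcn4*, and 0.33, 0.35, and 0.52 on those of Δ*gcn2*. The WT arrays lay above and the Δ*ire1* arrays below all others, whereas those of Δ*gcn4* and Δ*gcn2* overlapped. *SEC59* mRNA thus rose 2.58-fold in WT (1.37 ± 0.17, SD, n = 3, adjusted p = 2.1e-08), which was the highest of the 9 responses in WT, and rose less in Δ*gcn4* (0.31 ± 0.09, adjusted p = 0.013) and Δ*gcn2* (0.40 ± 0.10, adjusted p = 0.0020). In Δ*ire1* the value was −0.23 ± 0.15 and did not pass the test (adjusted p = 0.056).

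The response of *SEC59* was smaller than in WT in each deletion strain, with differences of −1.60 for Δ*ire1* (95% confidence interval −1.89 to −1.31, adjusted p = 2.3e-06), −1.06 for Δ*gcn4* (−1.35 to −0.77, adjusted p = 2.6e-04), and −0.97 for Δ*gcn2* (−1.26 to −0.68, adjusted p = 6.0e-04). It was the only 1 of the 9 genes called lower than in WT in all 3 deletion strains by the fit to all arrays. *SEC59* also differed between Δ*ire1* and each of the others, at −0.54 against Δ*gcn4* (adjusted p = 0.0090) and −0.63 against Δ*gcn2* (adjusted p = 0.0024). Between Δ*gcn4* and Δ*gcn2* the difference was −0.09, with an interval of −0.38 to 0.20. All of these differences kept their calls under every alternative tried, and the rise in Δ*gcn4* lost its call without Δ*gcn4* replicate 3 (0.26, adjusted p = 0.10).

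*DPM1* encodes dolichol-phosphate mannose synthase, whose product donates the lumenal mannoses of the N-glycan and is also used for O-mannosylation and for glycosylphosphatidylinositol (GPI) anchors. Its log2 ratios were 0.08, 0.51, and 0.24 on the WT arrays, −0.93, −0.60, and −0.24 on those of Δ*ire1*, −1.88, −1.25, and −1.10 on those of Δ*gcn4*, and −0.18, −1.01, and −0.04 on those of Δ*gcn2*. All WT arrays were above 0 and all arrays of the deletion strains below it. The 3 arrays of Δ*gcn4* were lower than all others, and Δ*gcn2* replicate 2 stood well below the other 2 arrays of its strain.

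*DPM1* fell to 0.38 of the untreated level in Δ*gcn4* (−1.41 ± 0.41, SD, n = 3, adjusted p = 1.1e-05) and to 0.66 in Δ*ire1* (−0.59 ± 0.35, adjusted p = 0.014). The values in WT (0.28 ± 0.22, adjusted p = 0.20) and Δ*gcn2* (−0.41 ± 0.52, adjusted p = 0.059) did not pass the test. Against WT, the response of *DPM1* differed by −1.69 in Δ*gcn4* (interval −2.23 to −1.14, adjusted p = 0.0013), the largest such difference of the 9 genes in that strain, and by −0.87 in Δ*ire1* (−1.41 to −0.32, adjusted p = 0.024). In this gene the response was lower in Δ*gcn4* than in Δ*ire1*, which differed by 0.82 (0.28 to 1.36, adjusted p = 0.028), and also lower than in Δ*gcn2*, with a difference of −1.0 (−1.54 to −0.46, adjusted p = 0.036).

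Of the called differences of *DPM1*, only that between Δ*gcn4* and WT was called under every alternative tried, and it was −1.45 without Δ*gcn4* replicate 1 (adjusted p = 0.0066). The difference between Δ*ire1* and WT was no longer called without WT replicate 2 (−0.75, adjusted p = 0.093), WT replicate 3 (−0.88, adjusted p = 0.051), Δ*ire1* replicate 1 (−0.69, adjusted p = 0.10), or Δ*ire1* replicate 2 (−0.86, adjusted p = 0.060). That between Δ*ire1* and Δ*gcn4* was lost without Δ*gcn4* replicate 1 (0.59, adjusted p = 0.10), Δ*ire1* replicate 2 (0.82, adjusted p = 0.066), or Δ*ire1* replicate 3 (0.64, adjusted p = 0.087), and with array weights (0.58, adjusted p = 0.066). That between Δ*gcn4* and Δ*gcn2* was lost without Δ*gcn4* replicate 1 (−0.77, adjusted p = 0.13), Δ*gcn4* replicate 2 (−1.08, adjusted p = 0.068), Δ*gcn2* replicate 1 (−0.89, adjusted p = 0.11), or Δ*gcn2* replicate 3 (−0.82, adjusted p = 0.17), and with arrays scaled to 1 spread (−1.05, adjusted p = 0.062). The fall in Δ*ire1* itself was not called with centered arrays (−0.45, adjusted p = 0.053), without Δ*ire1* replicate 1 (−0.42, adjusted p = 0.14), or without Δ*ire1* replicate 2 (−0.59, adjusted p = 0.057).

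*ALG5* encodes dolichol-phosphate glucose synthase, the enzyme that makes the donor used by Alg6p and Alg8p. Its log2 ratios were −0.43, −1.07, and −0.88 on the WT arrays, −0.40, −0.59, and −0.34 on those of Δ*ire1*, −0.21, −0.65, and −0.74 on those of Δ*gcn4*, and −0.61, −0.88, and −0.74 on those of Δ*gcn2*. Every array was below 0 and the strains overlapped. *ALG5* fell in all 4 strains, with means of −0.79 for WT (adjusted p = 7.1e-05), −0.44 for Δ*ire1* (adjusted p = 0.0090), −0.53 for Δ*gcn4* (adjusted p = 0.0022), and −0.74 for Δ*gcn2* (adjusted p = 1.0e-04), and was the only 1 of the 9 genes to do so. The fall in Δ*ire1* lost its call with centered arrays (−0.30, adjusted p = 0.059) and without Δ*ire1* replicate 2 (−0.37, adjusted p = 0.077). Relative to WT, its response differed by 0.35 for Δ*ire1* (interval −0.03 to 0.73), 0.26 for Δ*gcn4* (−0.12 to 0.64), and 0.05 for Δ*gcn2* (−0.33 to 0.43), none of which was called.

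On the cytosolic face, *ALG7* encodes the transferase that places the first sugar, N-acetylglucosamine phosphate, on dolichol phosphate, and it is the target of tunicamycin. Its log2 ratios were 0.69, 0.68, and 0.64 on the WT arrays, −0.80, −0.45, and −0.20 on those of Δ*ire1*, 0.92, 1.02, and 1.12 on those of Δ*gcn4*, and 1.32, 1.21, and 1.27 on those of Δ*gcn2*. The 4 strains did not overlap, and the order was Δ*ire1*, WT, Δ*gcn4*, and Δ*gcn2* from lowest to highest. *ALG7* rose 1.59-fold in WT (0.67 ± 0.03, SD, n = 3, adjusted p = 5.1e-05), 2.03-fold in Δ*gcn4* (1.02 ± 0.10, adjusted p = 1.2e-06), and 2.41-fold in Δ*gcn2* (1.27 ± 0.06, adjusted p = 8.6e-08), and fell to 0.71 of the untreated level in Δ*ire1* (−0.48 ± 0.30, adjusted p = 0.0013).

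The response of *ALG7* differed from that of WT by −1.16 in Δ*ire1* (interval −1.47 to −0.85, adjusted p = 7.4e-05) and by 0.60 in Δ*gcn2* (0.28 to 0.91, adjusted p = 0.013), which made it the only member called higher in a deletion strain than in WT. The latter call was lost without Δ*gcn2* replicate 3 (0.59, adjusted p = 0.0502) and with arrays scaled to 1 spread (0.37, adjusted p = 0.16). Between Δ*gcn4* and WT the difference was 0.35 (0.04 to 0.66) and did not pass the adjusted test (adjusted p = 0.25), although the arrays of these strains did not overlap. Nor did that between Δ*gcn4* and Δ*gcn2* (−0.25, interval −0.56 to 0.07).

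*ALG1* and *ALG2* encode the mannosyltransferases that act later on the same side of the membrane. *ALG1* rose in Δ*gcn4* (0.40 ± 0.07, adjusted p = 0.0035) and Δ*gcn2* (0.41 ± 0.10, adjusted p = 0.0023), and its values were 0.21 ± 0.17 in WT (adjusted p = 0.082) and 0.26 ± 0.21 in Δ*ire1* (adjusted p = 0.045). For *ALG1* the log2 ratios were 0.35, 0.02, and 0.27 on the WT arrays, 0.49, 0.09, and 0.19 on those of Δ*ire1*, 0.46, 0.32, and 0.40 on those of Δ*gcn4*, and 0.29, 0.46, and 0.47 on those of Δ*gcn2*. All 12 arrays were above 0, and the strains overlapped. The call in Δ*ire1*, the only rise among the 9 genes in that strain, was lost under 10 of 17 alternatives, including without Δ*ire1* replicate 1 (0.14, adjusted p = 0.37), without Δ*ire1* replicate 3 (0.29, adjusted p = 0.065), and in a fit to the Δ*ire1* arrays alone (0.26, adjusted p = 0.13). In WT it was called with centered arrays (0.36, adjusted p = 0.0050) and without WT replicate 2 (0.31, adjusted p = 0.043). *ALG2* was not called in any strain, with means from −0.07 in Δ*ire1* to 0.05 in Δ*gcn2*. The arrays read −0.09, −0.04, and 0.07 on the WT arrays, −0.23, 0.06, and −0.04 on those of Δ*ire1*, 0.06, −0.17, and 0.11 on those of Δ*gcn4*, and 0.04, −0.005, and 0.11 on those of Δ*gcn2*. They lay on both sides of 0 in every strain. Neither gene differed from WT in a deletion strain by a called amount, and in Δ*ire1* the intervals of these differences were −0.26 to 0.35 for *ALG1* and −0.33 to 0.23 for *ALG2*.

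In the lumen, *ALG3* encodes the mannosyltransferase that adds the first mannose from dolichol-phosphate mannose. Its log2 ratios were 1.07, 1.31, and 0.95 on the WT arrays, −1.09, −0.97, and −0.63 on those of Δ*ire1*, 0.51, 2.16, and 1.89 on those of Δ*gcn4*, and 1.59, 1.59, and 1.56 on those of Δ*gcn2*. All Δ*ire1* arrays were below and all others above 0, and Δ*gcn4* replicate 1 stood far below the other arrays of its strain. *ALG3* rose 2.16-fold in WT (1.11 ± 0.18, SD, n = 3, adjusted p = 3.1e-04), 2.87-fold in Δ*gcn4* (1.52 ± 0.88, adjusted p = 2.1e-05), and 2.99-fold in Δ*gcn2* (1.58 ± 0.01, adjusted p = 8.6e-06), and fell to 0.54 of the untreated level in Δ*ire1* (−0.90 ± 0.23, adjusted p = 0.0024).

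The difference between Δ*ire1* and WT in *ALG3*, −2.01 (interval −2.63 to −1.38, adjusted p = 2.8e-04), was the largest of the 27 between a deletion strain and WT. Against Δ*gcn4* and Δ*gcn2* the response in Δ*ire1* differed by −2.42 and −2.48. Without Δ*ire1* replicate 3 the difference from WT was −2.14. The differences of Δ*gcn4* from WT (0.41, interval −0.22 to 1.04, adjusted p = 0.54) and of Δ*gcn2* from WT (0.47, interval −0.16 to 1.10, adjusted p = 0.29) were not called, but 1 array decided the first of them. Without Δ*gcn4* replicate 1, *ALG3* was 0.92 higher in Δ*gcn4* than in WT (adjusted p = 0.0071), and with the smaller spread of that fit the difference of 0.47 for Δ*gcn2* also passed (adjusted p = 0.038), as it did in a fit to the WT and Δ*gcn2* arrays alone (adjusted p = 0.026).

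*ALG6* and *ALG8* encode the glucosyltransferases that add the first and the second glucose. *ALG6* gave log2 ratios of 1.03, 0.97, and 1.40 on the WT arrays, 0.09, −0.32, and −0.27 on those of Δ*ire1*, 1.12, 0.83, and 1.24 on those of Δ*gcn4*, and 0.98, 0.82, and 1.18 on those of Δ*gcn2*. WT, Δ*gcn4*, and Δ*gcn2* overlapped, and Δ*ire1* lay below them on every array. *ALG6* rose 2.19-fold in WT (1.13 ± 0.23, SD, n = 3), 2.09-fold in Δ*gcn4* (1.06 ± 0.21), and 1.99-fold in Δ*gcn2* (0.99 ± 0.18), with adjusted p of at most 2.9e-06, and was −0.17 ± 0.22 in Δ*ire1* (adjusted p = 0.26). Between Δ*ire1* and WT its response differed by −1.30 (interval −1.65 to −0.95, adjusted p = 7.8e-05), while the differences from WT were −0.07 for Δ*gcn4* (−0.42 to 0.29) and −0.14 for Δ*gcn2* (−0.49 to 0.22).

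*ALG8* changed little. It was called in WT only (0.27 ± 0.03, SD, n = 3, adjusted p = 0.023), and that call was lost without any 1 of the 3 WT arrays (adjusted p = 0.058 to 0.092) and in a fit to the WT arrays alone (adjusted p = 0.056). The single log2 ratios were 0.30, 0.23, and 0.27 on the WT arrays, 0.10, −0.20, and −0.01 on those of Δ*ire1*, 0.12, −0.09, and 0.10 on those of Δ*gcn4*, and 0.04, −0.16, and 0.12 on those of Δ*gcn2*. The WT arrays lay above all others, which overlapped, and the means of the deletion strains were between −0.04 and 0.04. Its differences from WT were −0.31 for Δ*ire1* (interval −0.59 to −0.02, adjusted p = 0.11), −0.22 for Δ*gcn4* (−0.50 to 0.06), and −0.27 for Δ*gcn2* (−0.55 to 0.01). Thus consecutive glucosyltransferases of the pathway stood far apart in WT, with a 2.19-fold response for *ALG6* and a 1.20-fold response for *ALG8*, a contrast between elements that was not tested.

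Comparing strains over the whole group, 5 of the 9 genes responded less in Δ*ire1* than in WT (*ALG3*, *SEC59*, *ALG6*, *ALG7*, and *DPM1*) and none more, where 11.3% of all elements responded less and 10.9% more. In Δ*gcn4*, 2 genes responded less (*DPM1* and *SEC59*) and none more, against 1.94% and 0.863% of elements. At an unadjusted p under 0.05, limma called 0 of the 9 higher and 6 lower in Δ*ire1*, with *ALG8* added. In Δ*gcn4* the same threshold gave 1 higher (*ALG7*) and 2 lower. In Δ*gcn2*, *SEC59* responded less and *ALG7* more, against 6.24% and 10.9% of elements (higher calls were 63.6% of all calls here and 53.5% with centered arrays). The median difference from WT over the 9 genes was −0.87 for Δ*ire1*, 0.02 for Δ*gcn4*, and 0.05 for Δ*gcn2*, and over all elements it was 0.03, 0.01, and 0.06. These 3 comparisons share the WT arrays and are not independent of each other.

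Without Δ*ire1* replicate 3, the called means of that strain were −0.63 for *ALG7*, −1.03 for *ALG3*, −0.50 for *ALG5*, and −0.77 for *DPM1*, and the differences from WT were −1.30 for *ALG7*, −2.14 for *ALG3*, −1.25 for *ALG6*, −1.04 for *DPM1*, and −1.52 for *SEC59*. All of these remained called. Without Δ*gcn4* replicate 1, the means of that strain were 1.07 for *ALG7*, 0.36 for *ALG1*, 2.03 for *ALG3*, 1.04 for *ALG6*, −0.69 for *ALG5*, −1.18 for *DPM1*, and 0.34 for *SEC59*, all still called, and the difference from WT was −1.03 for *SEC59*. Other calls that changed without either array are given with their genes, except those of *DPM1* in Δ*gcn2*. Its fall there (−0.41) was called by limma without Δ*ire1* replicate 3 (adjusted p = 0.047) or Δ*gcn4* replicate 1 (adjusted p = 0.037). Its difference from WT there (−0.69) was called without Δ*gcn4* replicate 1 (adjusted p = 0.048).

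**Figure D2:**
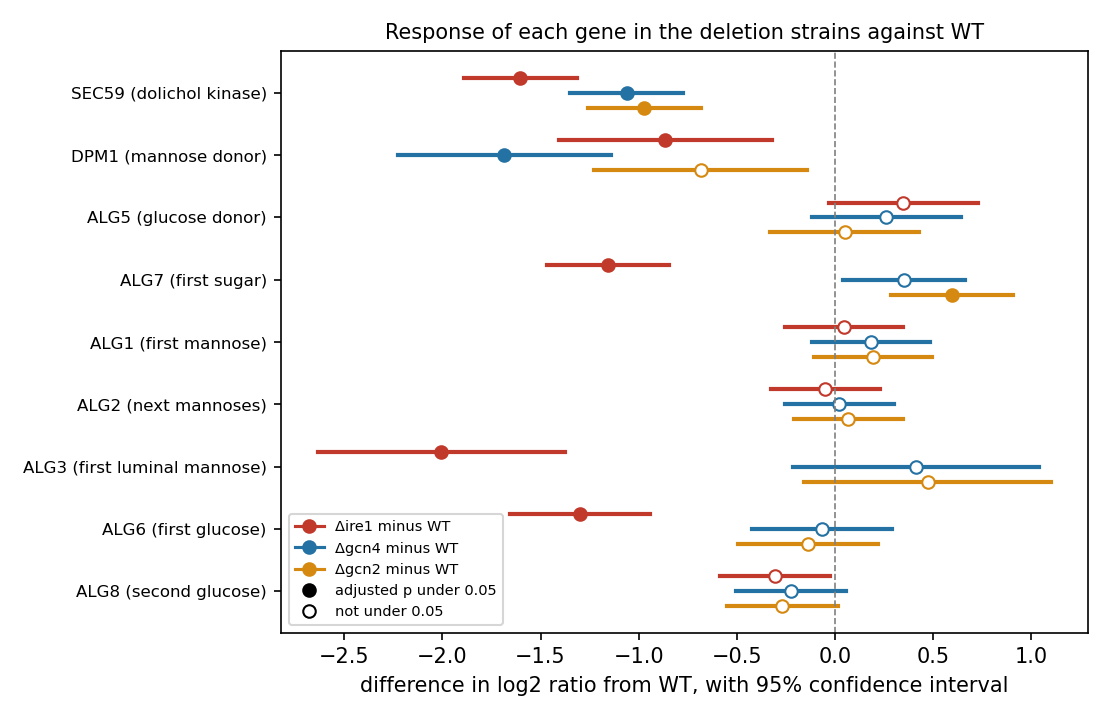
Difference in log2 ratio between each deletion strain and WT (horizontal axis) for the 9 genes, with points for the estimate, bars for the 95% confidence interval, and filled points where the adjusted p was under 0.05. The intervals of ALG7, ALG3, ALG6, and ALG8 lie wholly to the left of 0 in Δire1 only, whereas those of SEC59 and DPM1 do so in all 3 strains. Of these, the Δire1 value of ALG8 (−0.31) and the Δgcn2 value of DPM1 (−0.69) were not called after adjustment.

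Between the deletion strains, Δ*gcn4* differed from Δ*gcn2* in *DPM1* alone, which was lower in Δ*gcn4*, where 4.45% of all elements were lower and 1.88% higher (higher calls were 29.7% of all calls and 46.5% with centered arrays). Δ*ire1* was lower than Δ*gcn4* in 4 genes (*ALG3*, *ALG7*, *ALG6*, and *SEC59*) and higher in *DPM1*, against 12.8% and 13.2% of elements. It was lower than Δ*gcn2* in *ALG3*, *ALG7*, *ALG6*, and *SEC59*, against 21.0% of elements, and higher in none, against 15.8%, which an unadjusted p under 0.05 did not change.

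WT and Δ*gcn2* arrays with the same replicate number varied together, so the differences by pair were also formed. For *SEC59* they were −0.88, −1.0, and −1.04, and for *ALG7* 0.63, 0.53, and 0.63, each close to its mean. For *ALG3* they were 0.52, 0.28, and 0.61, and for *ALG8* −0.26, −0.40, and −0.15. For *DPM1* they were −0.25, −1.52, and −0.29, so that the mean of −0.69 rested largely on the second pair. With the replicate number as a block over all arrays, the response of *DPM1* was called lower than WT in Δ*gcn2* (adjusted p = 0.0497) where the fit without it had not (adjusted p = 0.077). *DPM1* was likewise called lower after DTT in Δ*gcn2* (adjusted p = 0.039). Without Δ*gcn2* replicate 2 its difference from WT was −0.39.

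Some of the 9 genes had similar profiles and others did not. As a description over 12 arrays of 4 strains, which are not independent points, Pearson's r was 0.94 between *ALG7* and *ALG3*, 0.83 between *ALG7* and *ALG6*, and 0.82 between *ALG3* and *ALG6*. By contrast, *DPM1* had r of −0.03, 0.04, and 0.08 with these 3 genes and 0.57 with *SEC59*. *ALG5* was negatively correlated with *SEC59* (−0.58), *ALG3* (−0.53), and *DPM1* (−0.48). The elements whose profile was most like the mean of the 9 genes were *PMU1* (r = 0.98), *SWP82* (0.97), *YLR126C* (0.97), and *GPD2* (0.96), together with 1 element that has no gene symbol here (0.96). For *SWP82* the means were 2.37 for WT, 0.15 for Δ*ire1*, 1.74 for Δ*gcn4*, and 2.16 for Δ*gcn2*.

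Other genes of the pathway were read from lists of related enzymes, whose counts stand beside the shares of all elements given above for each comparison (18.4% rose and 39.0% fell in WT, and 12.2% and 35.6% in Δ*ire1*). List counts are for arrays as deposited, and their change on centering was not examined. Over all elements in Δ*ire1*, rises were 25.5% of calls as deposited and 48.6% with centered arrays, so small falls on these lists may depend on centering. Of 6 measured genes of glycan assembly outside the 9, *ALG12*, a lumenal mannosyltransferase, rose in WT (0.38, adjusted p = 0.042), and *ALG10*, the last glucosyltransferase, fell (−0.28, adjusted p = 0.012). The list's median was 0.04 for WT. In Δ*ire1* none rose and 3 fell (*ALG9*, *ALG10*, and *ALG14*). *ALG10* rose in Δ*gcn4* (0.22) and Δ*gcn2* (0.29), higher than in WT by 0.50 and 0.57, and was the only gene of the list called higher than in WT in either strain. *ALG14*, which with *ALG13* forms the enzyme for the second sugar, was lower than in WT, by −0.56 for Δ*ire1* (adjusted p = 0.028) and −0.70 for Δ*gcn4* (adjusted p = 0.034), whereas *ALG13* was not called in any strain or comparison with WT.

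Genes that make dolichol also differed among themselves. *NUS1* and *RER2* encode the subunits of a cis-prenyltransferase. *NUS1* rose by 1.46 in WT, 0.75 in Δ*gcn2*, and 0.67 in Δ*gcn4* and was 0.11 in Δ*ire1* (adjusted p = 0.44), an order like that of *SEC59*, and was lower than in WT in all 3 deletion strains. *RER2* rose by 0.38 in WT, 0.60 in Δ*gcn2*, and 0.53 in Δ*gcn4*, fell by 0.45 in Δ*ire1*, and differed from WT in Δ*ire1* only. Of the 5 genes of this list, 2 rose and 1 fell in WT, and *DFG10*, which encodes a polyprenol reductase, was the one that fell (−0.39, adjusted p = 0.0024). The list's median was 0.03 for WT and −0.23 for Δ*ire1*.

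Of 8 genes that supply the nucleotide sugars, 4 rose in WT and 1 fell. *GFA1*, which controls entry into hexosamine synthesis, rose in all strains, by 1.37 in WT, 1.57 in Δ*gcn2*, 1.63 in Δ*gcn4*, and 0.85 in Δ*ire1*. *PMI40*, phosphomannose isomerase at the start of the mannose branch, rose in WT only (1.02) and was lower than in WT in all 3 deletion strains, with differences of −1.45 for Δ*ire1*, −0.88 for Δ*gcn4*, and −0.92 for Δ*gcn2*. The list's median was 0.23 for WT and −0.15 for Δ*ire1*, where 2 genes rose and 4 fell.

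Of 8 measured subunits of oligosaccharyltransferase, which moves the finished glycan to protein, 3 rose in WT (*WBP1* by 0.61, *SWP1* by 0.35, and the catalytic subunit *STT3* by 0.25) and *OST4* fell. In Δ*ire1*, 6 fell and none rose, where 35.6% and 12.2% of all elements did, and an unadjusted p under 0.05 gave the same counts. Relative to WT, 5 were lower in Δ*ire1*, where 11.3% of elements were lower (*WBP1*, *OST2*, *SWP1*, *OST3*, and *STT3*, with differences of −0.89 to −0.63) and none was called in Δ*gcn4*, where 1 was higher and 0 lower at an unadjusted p under 0.05. The list's median was 0.17 for WT and −0.32 for Δ*ire1*. *SWP1* was 0.52 higher in Δ*gcn2* than in WT.

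Of 10 genes whose products use dolichol-phosphate mannose, 4 rose in WT, and all of them encode protein O-mannosyltransferases, *PMT3* (1.84), *PMT2* (1.20), *PMT1* (1.14), and *PMT5* (0.99). These 4 were also the ones lower than in WT in Δ*ire1*, with differences of −1.92 to −1.31. In Δ*gcn4*, *PMT1*, *PMT2*, and *PMT5* were lower than in WT, with differences of −1.82, −1.26, and −0.97. The list's median was 0.27 for WT and 0.06 for Δ*ire1*. None of the 4 measured mannosyltransferases of GPI anchor synthesis (*GPI10*, *GPI14*, *SMP3*, and *GPI18*) was called in any strain, nor was any at an unadjusted p under 0.05.

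**Figure D3:**
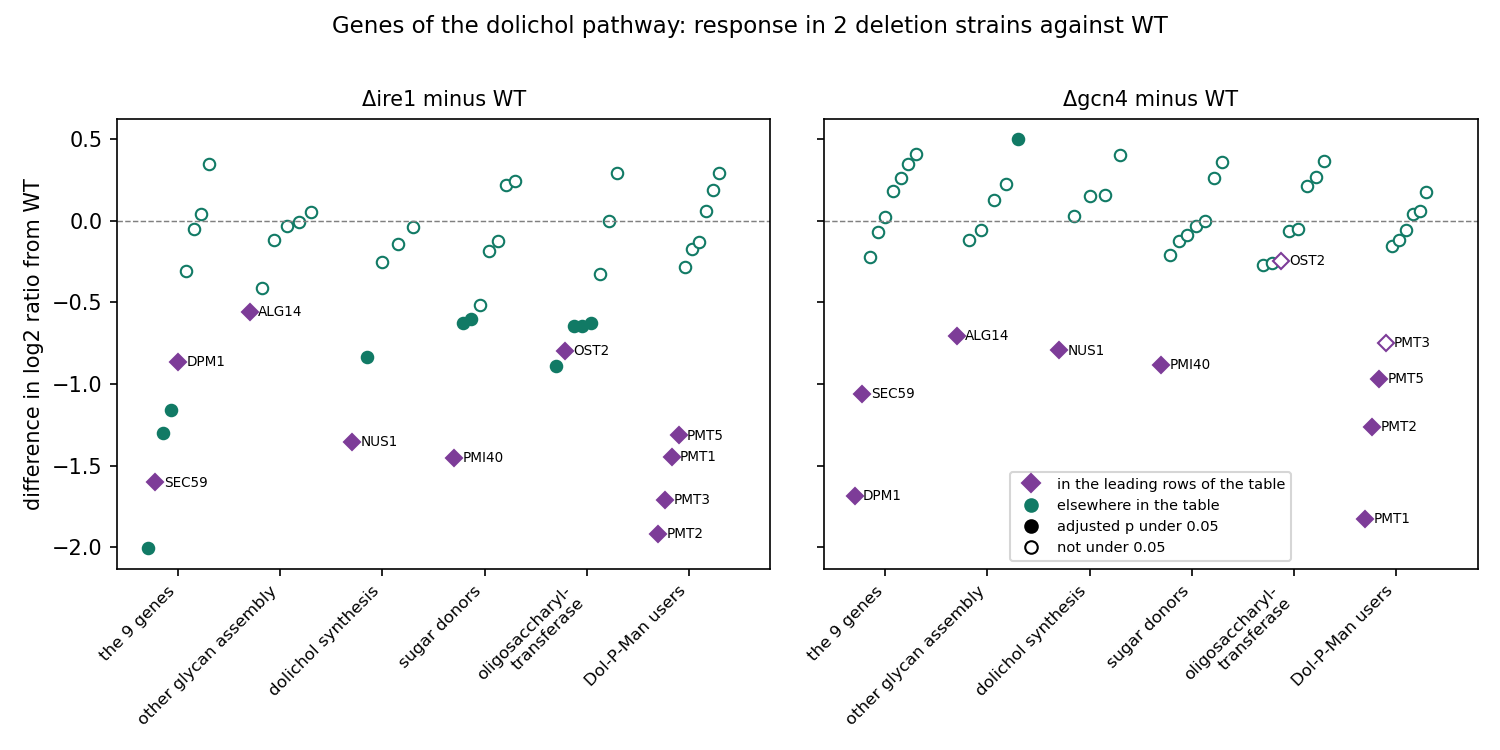
Difference in log2 ratio between Δire1 and WT (left) and between Δgcn4 and WT (right) for each of the 46 measured genes of the pathway, by list, with diamonds for the 10 genes in the leading 139 rows of the table, circles for the other 36, and filled symbols where the adjusted p was under 0.05. In Δgcn4 the filled symbols below 0 are all diamonds, whereas in Δire1 they include 10 circles.

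The place of the genes in the deposited table set *DPM1* and *SEC59* apart from the other 7. The leading 139 rows form 6 runs, each in the order of systematic names, before the remaining rows start again in that order. From their sizes, the runs were read as the groups into which the study sorted its targets by UPRE. No column says so, the study's text does not list the group sizes, and the reading was made after the table was seen. On that reading *DPM1*, in the first run, and *SEC59*, in the fifth, would be genes with a UPRE. Which UPRE each would carry cannot be told, because the study's text assigns no run to an element. *ALG7*, *ALG1*, *ALG2*, *ALG3*, *ALG6*, *ALG8*, and *ALG5* lie outside these rows. So does *KAR2*, the source of the UPRE-1 probe, whereas *ERO1*, the source of the UPRE-2 probe, lies within them. The reading was not tested against promoter sequences.

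Of the 46 genes measured on all of these lists, 10 lie in the leading rows (*DPM1*, *SEC59*, *ALG14*, *NUS1*, *PMI40*, *OST2*, *PMT1*, *PMT2*, *PMT3*, and *PMT5*). In WT, *DPM1* (0.28), *ALG14* (0.07), and *OST2* (0.27) were not called after DTT, and the others rose, where 18.4% of all elements did. Relative to WT all 10 were lower for Δ*ire1*, 8 for Δ*gcn4*, and 6 for Δ*gcn2*, where 75.5%, 65.5%, and 54.0% of all 139 rows were. Of the 36 others, 10 were below WT in Δ*ire1* and none in Δ*gcn4* or Δ*gcn2*, where 1 and 4 were above it. Over all elements the shares were 11.3% lower for Δ*ire1*, 1.94% lower and 0.863% higher for Δ*gcn4*, and 6.24% lower and 10.9% higher for Δ*gcn2*. The counts of the 36 for Δ*gcn4* and for rises in Δ*gcn2* were near these shares. The shares include the 139 leading rows, so they are not a background for the rows outside them. The median difference from WT was −1.40 in Δ*ire1* and −0.93 in Δ*gcn4* for the 10 genes, and −0.16 and 0.04 for the 36. The targets had been defined in earlier work partly by a stronger induction in WT than in Δ*ire1*. On this reading the choice of the 10 genes fixed their lower values in Δ*ire1*, which are given as a description only. The lower values of the 10 genes in Δ*gcn4* and Δ*gcn2* are likewise a description only. How the leading rows were chosen is not stated, and 65.5% and 54.0% of them were lower in these strains. The contrast with the 36 genes thus restates the place of the genes in the table. The difference between these groups of genes was not tested. At an unadjusted p under 0.05, limma called 0 of the 36 lower for Δ*gcn4* and 1 for Δ*gcn2*.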

How the data were processed

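The values are log2 ratios of treated over untreated cells that the authors deposited for 12 two-color spotted arrays of open reading frames, hybridized with mRNA purified on oligo(dT). How the ratios were normalized, and the background and saturation of spots, are not given in the sources used here, and precision is limited by the number of arrays. The study states that its values come from independent experiments. WT replicate 1 was identified by elimination, since its label carries no number.

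Linear models with 1 mean per strain were fitted to all 12 arrays and 6024 elements with limma 3.58.1 in R 4.3.3 (15.5 degrees of freedom in all), with p adjusted by the method of Benjamini and Hochberg and a threshold of 0.05. The fit was tested on simulated data with independent arrays, which cannot show how it behaves where the arrays of WT and Δ*gcn2* vary together. Genes were named by symbol from the probe annotation and the RefSeq R64 gene table. The named genes are the 9 enzymes, genes of related lists that passed the threshold in the comparison described, and the 5 elements most correlated with the mean of the 9. *ALG13*, the 4 genes of GPI anchors, and the genes upstream of the 9 were added after their values were seen. The 9 genes and the lists were chosen with earlier results of these data known. *OST5* was not matched to an element and is not reported here.

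Deviations from the strain means over all elements correlated at 0.574 to 0.661 between same-numbered arrays of WT and Δ*gcn2*, against −0.414 to −0.198 for other numbers, so numbers were taken to pair these strains. Deviations within a strain cancel, so positive values for same-numbered arrays make the others negative on average by construction. The negative values are therefore no separate evidence of pairing. For other strains the correlations of same-numbered arrays ran from −0.146 to 0.293 and no pairing was used. Alternatives were arrays centered on their medians, centered and scaled to 1 spread, array weights, a replicate block, only the arrays compared, and each array left out in turn.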

Additional observations from a re-analysis of the deposited data

Results flagged for a closer look

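Of the 54 differences in response between pairs of strains (6 for each of 9 genes), the 19 called by limma are listed because 2 strains responded differently to the same treatment. For *ALG7* they were −1.16 between Δ*ire1* and WT, 0.60 between Δ*gcn2* and WT, −1.51 between Δ*ire1* and Δ*gcn4*, and −1.75 between Δ*ire1* and Δ*gcn2*. For *ALG3*, Δ*ire1* differed from WT by −2.01, from Δ*gcn4* by −2.42, and from Δ*gcn2* by −2.48. For *ALG6* the corresponding values were −1.30, −1.23, and −1.16. For *DPM1* they were −0.87 between Δ*ire1* and WT, −1.69 between Δ*gcn4* and WT, −1.0 between Δ*gcn4* and Δ*gcn2*, and 0.82 between Δ*ire1* and Δ*gcn4*. For *SEC59*, Δ*ire1*, Δ*gcn4*, and Δ*gcn2* differed from WT by −1.60, −1.06, and −0.97, and Δ*ire1* differed from Δ*gcn4* by −0.54 and from Δ*gcn2* by −0.63. Of these 5 genes, only *DPM1* responded less in Δ*gcn4* than in Δ*ire1*, a difference that rested on single arrays as given above.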

How the results depend on the processing

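Over 90 values and differences of the 9 genes and 1539 comparisons with an alternative, 1486 left the call as it was, 35 lost it, and 18 gained it. The sign turned in 51 comparisons, of 22 values with an estimate of at most 0.25 in size that were called neither before nor after, so no called value changed direction. Changes of a count by a factor of at most 1.5 were taken as the same. Among such counts, that of genes that rose in WT (5) was 6 with centered or scaled arrays. It was 4 with only the arrays compared and 4 to 5 without single arrays. Without single arrays, the counts lower in Δ*ire1* than in WT (5) and higher after DTT in Δ*gcn4* (5) were each 4 to 5. Changes beyond that factor were as follows. The number of genes that rose in Δ*ire1* (1) was 0 with array weights and with only the arrays compared, and 0 to 1 when single arrays were left out. The number that fell in Δ*ire1* (4) was 2 with centered arrays and 2 to 4 without single arrays. The number that fell in Δ*gcn2* (1) was 2 with array weights, 2 with only the arrays compared, and 1 to 2 without single arrays. The number higher in Δ*gcn4* than in WT (0) was 0 to 1 without single arrays. The number higher in Δ*gcn2* than in WT (1) was 0 with scaled arrays, 2 with only the arrays compared, and 0 to 2 without single arrays, and the number lower (1) was 2 with only the arrays compared and 1 to 2 without single arrays. The number lower in Δ*gcn4* than in Δ*gcn2* (1) was 0 with scaled arrays and 0 to 1 without single arrays. The number higher in Δ*ire1* than in Δ*gcn4* (1) was 0 with array weights and 0 to 1 without single arrays. The cause was not tested.

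With a replicate block over all arrays, 2 genes in place of 1 fell in Δ*gcn2*, and 2 in place of 1 were lower in Δ*gcn2* than in WT, *DPM1* being added each time. A replicate block with only the WT and Δ*gcn2* arrays, chosen after the data were seen, gave 2 genes higher (*ALG7* and *ALG3*) and 3 lower (*SEC59*, *DPM1*, and *ALG8*). That fit took 1 spread for all elements (12048 degrees of freedom), so the unequal pairs of *DPM1* did not count against its call. Over all elements it called 1839 higher and 1192 lower, against 657 and 376 without the block. The block over all arrays changed no other call of the 9 genes.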

Other observations

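Promoters of divergently transcribed genes lie next to each other, so the upstream neighbors of the 9 genes in the RefSeq R64 annotation were read, a choice made after values of the members had been seen. *GPX2*, a glutathione peroxidase gene that shares its upstream region with *ALG7*, rose in all strains, by 1.65 in WT, 1.67 in Δ*ire1*, 1.50 in Δ*gcn2*, and 1.18 in Δ*gcn4*, and its difference between Δ*ire1* and WT was 0.02 (limma, adjusted p = 0.96), beside −1.16 for *ALG7*. *YBL081W*, the divergent neighbor of *ALG3*, had a lower response in Δ*ire1*, at −0.99 relative to WT (adjusted p = 0.0020), with means of 0.31 in WT and −0.68 in Δ*ire1*. *VPS5*, which encodes a retromer subunit and is the divergent neighbor of *ALG8*, rose in WT (0.81), Δ*gcn2* (0.83), and Δ*gcn4* (0.82) and was 0.04 in Δ*ire1*, whereas *ALG8* lay between −0.04 and 0.27. *BUD22*, the divergent neighbor of *SEC59*, fell in all 4 strains, with means of −1.23 to −0.54. The divergent neighbors of *ALG1* and *ALG5*, *CMD1* and *NEW1*, differed between Δ*ire1* and WT by 0.16 (adjusted p = 0.42) and 0.10 (adjusted p = 0.67), neither of which was called. The upstream neighbors of *ALG2*, *ALG6*, and *DPM1* lie in tandem, and none of the 9 genes overlaps another annotated gene.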
